A study of Homo sapiens with 6 samples.

Results

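The transcripts described here encode focal adhesion kinase (FAK), its Src family partners and the adaptors that they act through. The members were the 10 rows of the deposited gene table whose symbol was PTK2, PTK2B, SRC, FYN, YES1, LYN, CSK, BCAR1, CRK or CRKL, out of 12306 rows in all, and each symbol had 1 row. The cells were 92.1, a human line established from uveal melanoma, grown in RPMI-1640 medium with serum. The 3 control libraries were from cells given DMSO vehicle and the 3 treated libraries from cells given 1 µM VS-4718, a small-molecule inhibitor of the kinase activity of FAK, in both cases for 2 h. All 6 libraries thus came from 1 cell line, and the only stated difference was the compound. Whether each library had its own culture is not stated, and the p-values below reflect the spread of these 6 libraries, part of which may be technical. In such bulk RNA a lower level can come from fewer cells with the transcript or from less of it per cell, which cannot be told apart.

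FAK, encoded by PTK2, is a tyrosine kinase recruited to integrin adhesions. Its autophosphorylation creates a docking site for Src family kinases, and the FAK and Src complex then phosphorylates the scaffold BCAR1, which binds the adaptors CRK and CRKL. CSK restrains the Src family by phosphorylating the tail tyrosine that holds those kinases closed. In uveal melanoma, mutant Gq proteins are known to activate FAK through TRIO and RhoA. VS-4718 acts on the FAK protein, whereas the values here are transcript levels and carry no information on phosphorylation.

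Each value is the log2 of a TPM-like measure, that is, transcript abundance per length scaled to a fixed total. This scale keeps no read total, and the depth of each library is unknown. The row names follow mouse usage in part: 2665 rows had no human match, and these held between 43.5% and 44.7% of the summed linear values of a library. Levels are accordingly those of rows in the table, and how completely a row captured its human transcript was not tested. The ratios, shares and orders between genes given below therefore hold for these rows, and may differ from those of the transcripts in the cells. Of 12 melanocyte markers 11 had a row, with a summed linear level from 7422 to 8001 in vehicle and from 7208 to 7892 with VS-4718. PMEL, a melanosome matrix protein, TYRP1 and SOX10, a lineage transcription factor, were high, at mean log2 levels of 12.21, 11.21 and 8.20 in vehicle. PMEL and TYRP1 made up most of the sum. DCT was low, at 0.63 in vehicle and 0.39 with VS-4718, and MLANA and TYR lay under 1 linear unit. Of markers of other cell types, 5 of 8 for fibroblasts had a row, 1 of 8 for immune cells, 2 of 6 for endothelium and 1 of 7 for epithelium. Their summed linear levels were at most 1.72 for fibroblasts, 0.142 for immune cells, 8.60 for endothelium and 0.501 for epithelium in any library.

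Paralogs of this set are alike in protein but differ in the sequence of their human transcripts. The longest exact runs shared by the coding sequences of paralogs are shown in capitals, with flanking bases in lower case, 5′ to 3′, from the GENCODE 29 transcripts (GRCh38). CRK and CRKL shared a run of 21 bases, starting at coding base 169 of CRK and 172 of CRKL, where base 1 is the A of the start codon. FYN and YES1 shared 23 bases, from coding bases 619 and 661, and SRC and FYN shared 20 bases, from coding bases 1297 and 1282. SRC and YES1 shared at most 14 bases.
CRK: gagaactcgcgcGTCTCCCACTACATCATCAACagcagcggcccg
CRKL: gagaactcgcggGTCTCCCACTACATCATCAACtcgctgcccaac
FYN: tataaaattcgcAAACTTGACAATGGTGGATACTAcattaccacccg
YES1: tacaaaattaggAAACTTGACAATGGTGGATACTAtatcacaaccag
SRC: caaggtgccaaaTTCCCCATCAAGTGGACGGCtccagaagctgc
FYN: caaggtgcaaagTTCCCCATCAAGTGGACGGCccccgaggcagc

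Over whole human transcripts, SRC, FYN, YES1 and LYN shared no run of 31 bases with one another, nor did CRK with CRKL or PTK2 with PTK2B. PTK2 and CRK had 3 distinct 31-base runs in common, and the remaining members shared none within the set. Runs shared with any other gene were most common for YES1, at 11.5% of its distinct 31-base runs, with the pseudogene YES1P1 as the largest single partner. BCAR1 shared 10.1%, chiefly with 1 other gene model, and the other members between 0% for SRC and CSK and 4.26% for CRK. By this count of human transcripts, YES1 and BCAR1 were the members most open to sharing reads with another gene model. How reads were shared between the rows used here was not tested. These shares describe human transcripts, since the sources used here do not name the transcripts that reads were matched to.

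In GENCODE 29 on GRCh38 all 10 are protein-coding genes, and each value is given per gene symbol, not per exon. PTK2 lies on chromosome 8 from 140657900 to 141002216, PTK2B on chromosome 8 from 27311482 to 27459391 and LYN on chromosome 8 from 55879813 to 56014168. SRC lies on chromosome 20 from 37344685 to 37406050, FYN on chromosome 6 from 111660332 to 111873452 and YES1 on chromosome 18 from 721588 to 812546. CSK lies on chromosome 15 from 74782057 to 74803198 and BCAR1 on chromosome 16 from 75228187 to 75268053. CRK lies on chromosome 17 from 1420689 to 1463162 and CRKL on chromosome 22 from 20917426 to 20953749.

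The comparison of VS-4718 with vehicle asked whether transcripts of the pathway had moved after 2 h with an inhibitor of its first kinase. None of the members passed. Of the 10 members, 7 had a mean high enough to be tested, and 0 of the 7 passed limma with Benjamini-Hochberg adjustment, against 0.13% of all 9229 tested rows. At an unadjusted limma p under 0.05 there were 2 members, CRK with higher and LYN with lower values under VS-4718. These were also the 2 of 7 whose groups did not overlap, against 16.4% of all tested rows. Of all tested rows, 9.76% had an unadjusted p under 0.05, 3.02% as higher and 6.74% as lower. Lower means were found for 6 of the 7 tested members, all but CRK, against 58.2% of all tested rows. The median log2 fold change of the 7 was -0.10, and that of all tested rows was -0.03.

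**Figure D1:**
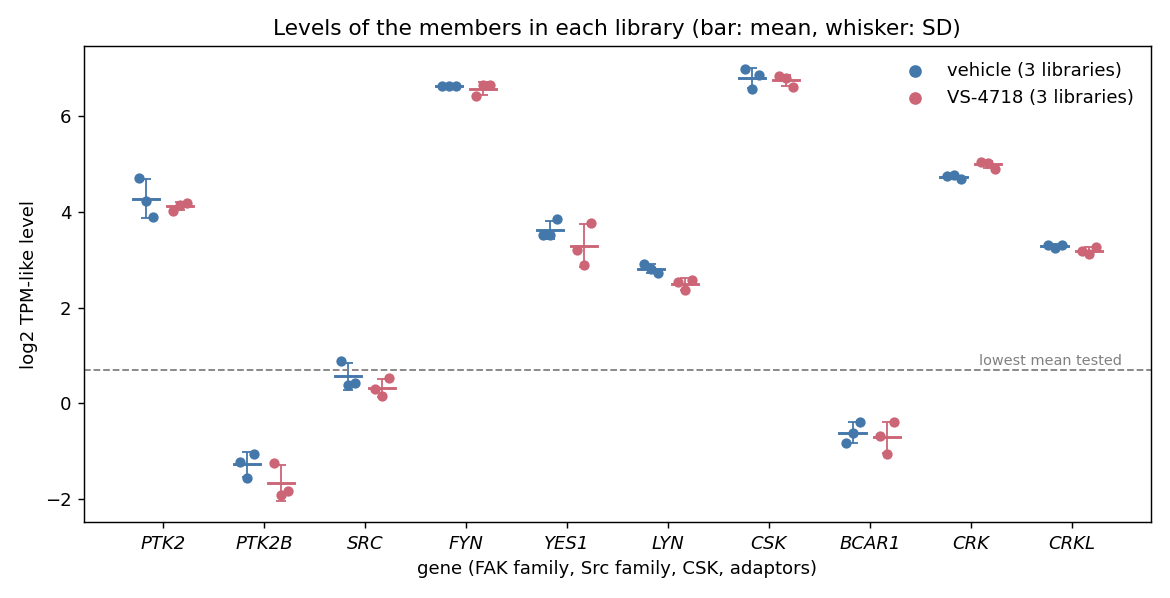
Log2 TPM-like level (vertical axis) of each member (horizontal axis) in the 3 vehicle and 3 VS-4718 libraries, with a bar at the group mean and a whisker of 1 SD. CRK and LYN are the 2 tested members whose groups did not overlap, and PTK2B, SRC and BCAR1 lie below the dashed line, the lowest mean that was tested.

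PTK2, which encodes the target of the compound, stood at 4.70, 4.22 and 3.90 log2 units in vehicle replicates 1 to 3 and at 4.03, 4.15 and 4.20 with VS-4718. Vehicle replicate 1 was the highest and vehicle replicate 3 the lowest of all 6, so the treated values lay inside the vehicle range. The log2 fold change was -0.15 (SE 0.20, 95% interval -0.62 to 0.32, limma adjusted p = 0.84), which spans a change of -34.8% to 24.7%. Its sign rested on 1 library: without vehicle replicate 1 the value was 0.07, and without vehicle replicate 3 it was -0.34. The residual SD of PTK2 was larger than that of 82.8% of tested rows.

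PTK2B encodes PYK2, the FAK paralog that responds to calcium as well as to adhesion, and was the lowest of the 10. It stood at -1.22, -1.56 and -1.06 log2 units in vehicle and at -1.25, -1.92 and -1.84 with VS-4718, or between 0.264 and 0.480 on the linear scale. The groups overlapped, through the first treated library. It was left untested as a low row; only 11.2% of all rows had a mean at or below its own.

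Within a library, PTK2 exceeded PTK2B by between 4.95 and 6.08 log2 units. As geometric means the ratio of PTK2 to PTK2B was 47.0 in vehicle and 55.5 with VS-4718. The within-library difference changed by 0.24 log2 units, and the exact two-sided permutation test over the 20 divisions of the libraries gave p = 0.5. PTK2 thus made up from 96.9% to 98.5% of the summed linear level of the FAK family in every library.

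Among the Src family members, FYN was by far the most abundant row. FYN stood at 6.63, 6.64 and 6.63 log2 units in vehicle and at 6.42, 6.66 and 6.66 with VS-4718. The 3 vehicle values had an SD of only 0.0097, and 1 treated library lay below them while the other two lay just above. FYN had a log2 fold change of -0.05 (SE 0.08, 95% interval -0.23 to 0.13, limma adjusted p = 0.85), which spans a change of -15.0% to 9.40%. Without VS-4718 replicate 1 it was 0.03.

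YES1, a ubiquitously expressed Src relative, was the second Src family row by level and the most variable. It stood at 3.53, 3.52 and 3.84 log2 units in vehicle and at 3.21, 2.88 and 3.78 with VS-4718. Replicate 3 was the highest library in both groups, and the third treated library overlapped the vehicle range. YES1 had a log2 fold change of -0.34 (SE 0.23, 95% interval -0.88 to 0.21, limma adjusted p = 0.67). Leaving out the third treated library gave -0.58 and leaving out the second -0.13.

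LYN, a Src relative best known from blood cells, stood at 2.92, 2.80 and 2.72 log2 units in vehicle and at 2.54, 2.36 and 2.58 with VS-4718. Every treated value lay below every vehicle value; of all tested rows, 11.2% were separated in this direction. On the linear scale LYN went from 7.04 ± 0.48 (SD, n = 3) to 5.63 ± 0.45. The log2 fold change was -0.32 (SE 0.12, 95% interval -0.60 to -0.04), a change of -20.1%, with an unadjusted limma p of 0.030 and an adjusted p of 0.47. With the replicate number as a block the unadjusted limma p was 0.056.

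SRC itself was a low row. It stood at 0.89, 0.38 and 0.43 log2 units in vehicle and at 0.29, 0.14 and 0.53 with VS-4718, with overlapping groups, and was left untested. Its linear level was between 1.10 and 1.85 in every library, beside 85.7 to 101 for FYN.

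The order of the Src family, FYN above YES1 above LYN above SRC, was the same in all 6 libraries. FYN made up 82.6% ± 0.9 (SD, n = 3) of the family's summed linear level in vehicle and 85.0% ± 2.8 with VS-4718. YES1 made up 10.3% ± 1.3 and 8.92% ± 2.40, LYN 5.86% ± 0.44 and 5.01% ± 0.62, and SRC 1.25% ± 0.26 and 1.11% ± 0.13. For each of the 4 Src family pairs compared, the within-library differences of the groups overlapped. The change was 0.28 log2 units for FYN minus YES1 (exact permutation p = 0.4), -0.19 for SRC minus FYN (0.6), 0.08 for SRC minus LYN (0.6) and 0.09 for SRC minus YES1 (0.8). Leaving out VS-4718 replicate 2 gave 0.039 for FYN minus YES1, and leaving out vehicle replicate 1 gave -0.025 for SRC minus FYN.

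**Figure D2:**
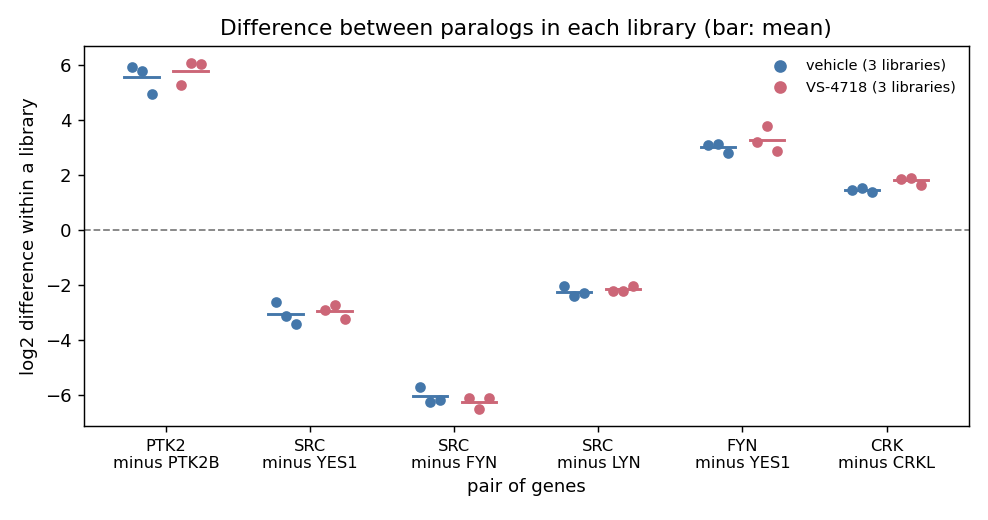
Log2 difference between the genes of each pair within a library (vertical axis) for 6 pairs (horizontal axis), with points for the 3 vehicle and 3 VS-4718 libraries and a bar at each group mean. CRK minus CRKL is the only pair of the 6 whose groups do not overlap, at 1.37 to 1.54 in vehicle and 1.64 to 1.91 with VS-4718. Of single tested rows, 16.4% had groups that did not overlap, and no such share was computed for pairs of rows.

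CSK, the kinase that restrains the Src family, had the highest mean of the 10 members. It stood at 6.99, 6.58 and 6.86 log2 units in vehicle and at 6.84, 6.81 and 6.61 with VS-4718, so the treated values lay inside the vehicle range. The log2 fold change was -0.06 (SE 0.12, 95% interval -0.33 to 0.22, limma adjusted p = 0.89). Its sign turned to 0.03 without vehicle replicate 1 and to 0.01 without the third treated library.

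BCAR1, the Cas scaffold that FAK and Src phosphorylate, stood at -0.83, -0.62 and -0.40 log2 units in vehicle and at -0.70, -1.06 and -0.40 with VS-4718. The second treated library was the lowest of all 6 and the other treated values lay within or just above the vehicle range, and the row was too low to be tested. Its linear level was between 0.480 and 0.759. NEDD9, another member of the Cas family, was also left untested, at 0.03 ± 0.12 (SD, n = 3) and -0.12 ± 0.38 log2 units, and EFS and CASS4 had no row among those used here.

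CRK, an adaptor that links phosphorylated BCAR1 to guanine nucleotide exchange factors, was the tested member with a higher mean under VS-4718. It stood at 4.76, 4.78 and 4.68 log2 units in vehicle and at 5.05, 5.02 and 4.91 with VS-4718. All 3 treated values lay above all 3 vehicle values; of all tested rows, 5.15% were separated in this direction. On the linear scale CRK went from 26.8 ± 0.9 (SD, n = 3) to 31.9 ± 1.7. The log2 fold change was 0.25 (SE 0.07, 95% interval 0.08 to 0.43), a change of 19.2%, with an unadjusted limma p of 0.011. It ranked 284th of 9229 rows by that p, and the adjusted p was 0.37. Leaving out each library in turn gave fold changes from 0.22 to 0.30 on the log2 scale, none of them past the adjusted threshold.

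CRKL, the CRK paralog, stood at 3.32, 3.24 and 3.31 log2 units in vehicle and at 3.19, 3.12 and 3.27 with VS-4718. The groups overlapped only through the third treated library, which lay above the second vehicle library. CRKL had a log2 fold change of -0.10 (SE 0.09, 95% interval -0.32 to 0.12, limma adjusted p = 0.76).

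CRK and CRKL, whose coding sequences share at most the short run printed above, had fold changes of opposite sign. CRK minus CRKL within a library was 1.44, 1.54 and 1.37 log2 units in vehicle and 1.86, 1.91 and 1.64 with VS-4718. A scaling factor of a library cannot move this difference. As geometric means, CRK exceeded CRKL 2.74-fold in vehicle and 3.49-fold with VS-4718, and the share of CRK in their summed linear level was 73.2% ± 1.2 (SD, n = 3) and 77.7% ± 1.7. The change was 0.35 log2 units with p = 0.1 in the exact two-sided permutation test, the smallest p that 3 libraries against 3 can give, and the adjusted p over the 6 pairs was 0.6. The pair did not pass, and this test could not have passed it at 0.05.

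**Figure D3:**
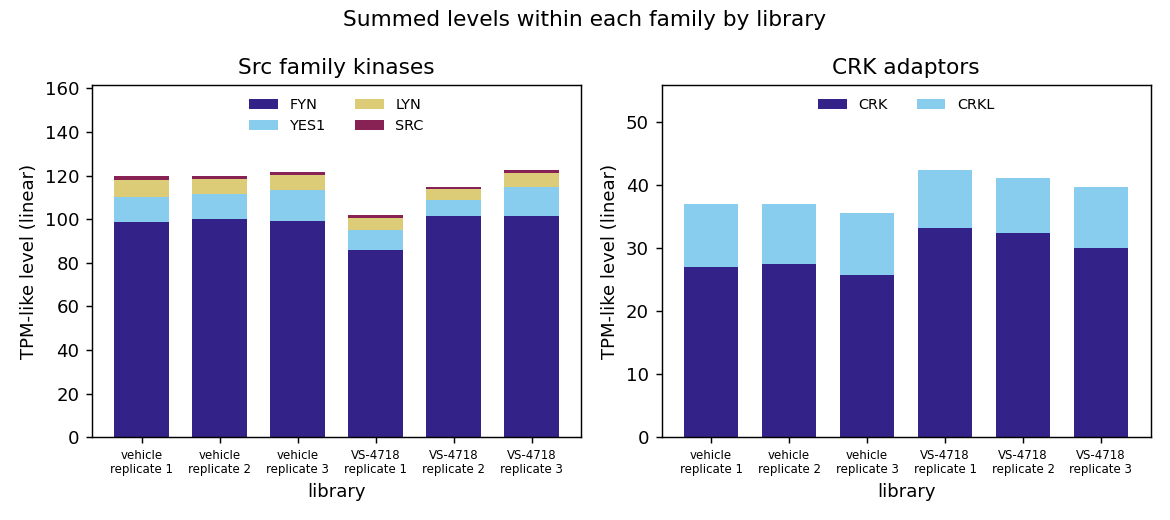
Linear TPM-like levels (vertical axis) stacked by gene for the Src family members and for CRK and CRKL in each of the 6 libraries (horizontal axis). FYN fills most of the Src family bar in every library, and the summed CRK and CRKL level was 35.6 to 37.0 in vehicle and 39.6 to 42.4 with VS-4718.

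Over the 6 libraries the members fell in the order CSK, FYN, CRK, PTK2, YES1, CRKL, LYN, SRC, BCAR1 and PTK2B by mean log2 level. CSK and FYN, at means of 6.78 and 6.61, were within their spread: CSK was higher in 4 of 6 libraries (mean difference 0.17, SD 0.20). So were YES1 and CRKL, with YES1 higher in 5 of 6 (0.22, SD 0.29). Each of the other 7 neighbour pairs had the same order in 6 of 6 libraries. The pairs were set by these same means, so the order is a description. The widest steps were LYN above SRC, by 2.21 log2 units, and FYN above CRK, by 1.74.

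The wider pathway was described through 5 lists of 58 genes that exclude the members, of which 48 had a row and 36 were tested. None of the 36 passed limma with Benjamini-Hochberg adjustment, and 2, ABL2 and RB1CC1, had an unadjusted limma p under 0.05, against 9.76% of all tested rows. With a library left out this count ran from 0, without VS-4718 replicate 2, to 3, and it was 1 with the replicate block. Lower means were found for 22 of the 36, beside 58.2% of all tested rows. The median log2 fold change of the 36 was -0.03, the same as over all tested rows to that precision. FRK, a more distant relative of the Src family, stood at a mean of -2.68 log2 units, too low to test. It was at -3.20 ± 0.20 (SD, n = 3) in vehicle and -2.17 ± 0.21 with VS-4718. The treated values of FRK all lay above its vehicle values. Among tested rows 5.15% were separated in this direction, but no share was computed for rows as low as FRK.

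Regulators of Src family kinases and CSK had 5 of 8 tested genes with a lower mean, beside 58.2% of all tested rows. The median log2 fold change of the list was -0.18. That median was -0.065 if the first vehicle library was left out, -0.062 if the second treated library was, and 0.052 with the stricter filter on low rows. PTPN12, a phosphatase that acts on BCAR1, had a log2 fold change of -0.34 (SE 0.17, limma adjusted p = 0.57) with overlapping groups. CBL, a ubiquitin ligase for activated tyrosine kinases, had -0.29 (SE 0.21), and PTPN2, a tyrosine phosphatase, 0.09 (SE 0.09). PTPRA, the receptor phosphatase that opens Src by removing the phosphate CSK adds, had the highest level of the list, at 5.03 log2 units, and a log2 fold change of 0.05 (SE 0.07).

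Cas family members and CRK effectors had 6 of 11 tested genes with a lower mean, beside 58.2% of all tested rows. The median log2 fold change of the list was -0.003. ABL2, a tyrosine kinase that phosphorylates CRK proteins, stood at 4.51, 4.14 and 4.56 log2 units in vehicle and at 3.98, 3.98 and 4.11 with VS-4718. All treated values of ABL2 were below all vehicle values, if narrowly, as in 11.2% of all tested rows. Its log2 fold change was -0.38 (SE 0.13, limma adjusted p = 0.42). Its paralog ABL1 had -0.11 (SE 0.08) and SOS1, a Ras exchange factor, -0.22 (SE 0.13). RAC1, the GTPase downstream of CRK and DOCK1, was the most abundant of the list at 8.65 log2 units, and its fold change of -0.03 (SE 0.04) became 0.005 with median scaling between libraries.

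Adhesion and GTPase partners of FAK had 9 of 13 tested genes with a lower mean, beside 58.2% of all tested rows. The median log2 fold change of the list was -0.04. Leaving out the third vehicle library gave a median of -0.098, the third treated library -0.10 and the second treated library -0.016. RB1CC1, an autophagy protein that binds and inhibits FAK, stood at 3.97, 3.89 and 3.87 log2 units in vehicle and at 4.06, 4.12 and 4.26 with VS-4718. The groups did not overlap, with all treated values higher, as in 5.15% of all tested rows. Its log2 fold change was 0.24 (SE 0.09, limma adjusted p = 0.48). CTTN, the Src substrate cortactin, was the most abundant of the list at 9.21 log2 units and had -0.09 (SE 0.05, limma adjusted p = 0.56). Its treated values as deposited all lay below its vehicle values, as in 11.2% of all tested rows. With median scaling between libraries the log2 fold change of CTTN was -0.06 and its groups overlapped. PIK3R1, a regulatory subunit of PI3K, had -0.28 (SE 0.15).

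**Figure D4:**
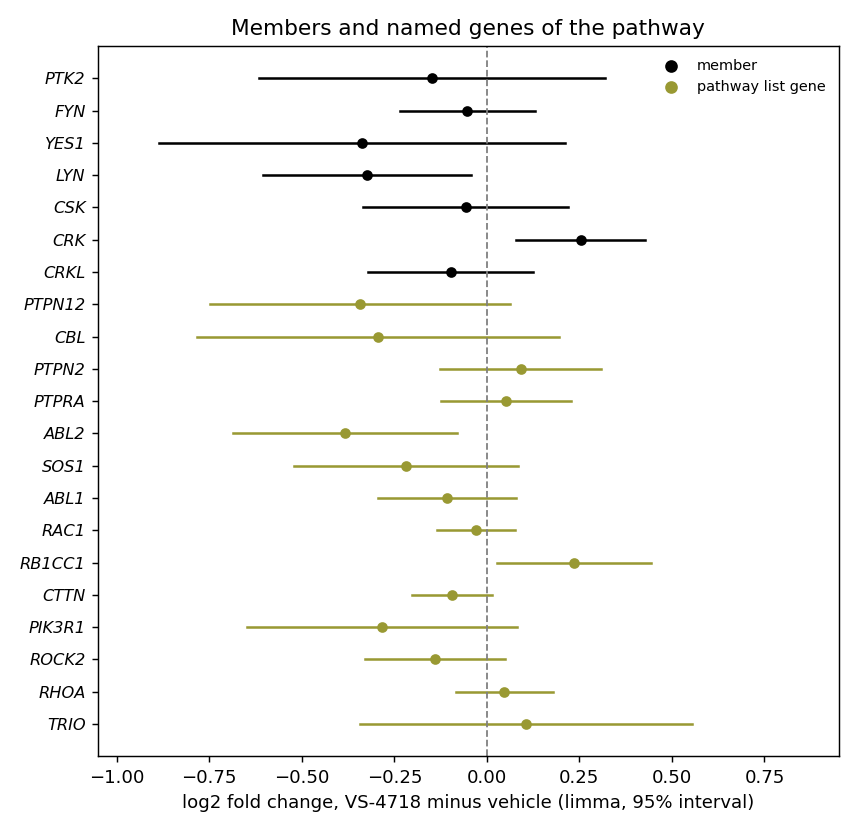
Log2 fold change of VS-4718 over vehicle (horizontal axis) with its 95% limma interval for the 7 tested members and 14 named pathway genes (vertical axis). The intervals of CRK, LYN, ABL2 and RB1CC1 lie to one side of 0 before adjustment for the 9229 rows tested, and none of these genes passed after it.

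TRIO, the exchange factor that couples Gq to RhoA, was at 1.77 log2 units and had a log2 fold change of 0.11 (SE 0.19), which was -0.06 without vehicle replicate 1. RHOA was at 8.73 log2 units with a log2 fold change of 0.05 (SE 0.05). ROCK2, a RhoA effector kinase, had -0.14 (SE 0.08, limma adjusted p = 0.61). The treated values of ROCK2 as deposited all lay below its vehicle values, as in 11.2% of all tested rows. With median scaling between libraries the log2 fold change of ROCK2 was -0.11 and its groups overlapped.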

How the data were processed

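The submitters' processing notes name kallisto and GRCh38; the sources used here give no version, index, annotation or filter. Each deposited value is a log2 level for a gene symbol and a library. As linear values, a library's rows sum to between 836527 and 840714, which is why they are called TPM-like. Counting intervals cannot be had from this scale, which holds no depth.

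The 10 members and all lists were chosen with earlier results of these data known. Rows with a mean above the lowest 25% (over 0.70) were tested, 9229 in all, with limma 3.58.1 in R 4.3.3 (limma-trend, group as the only term, values as deposited, two-sided, Benjamini-Hochberg over all tested rows, threshold 0.05). Fold changes are VS-4718 minus vehicle. Within-library differences were tested by exact permutation, and neighbours in level by an exact sign-flip, not used as support since the levels chose the pairs. Named genes were the members, up to 3 genes with the smallest p and the 1 with the highest mean per list, and the 3 rows most like PTK2. An item of the lists is not reported here. FRK, NEDD9 and the markers stand outside the rule and were chosen with their values known. A simulation of 9229 genes planted shifts of 0.5, 1, 2 and 4 log2 units, with 50 genes at each size. The fit found 44%, 76%, 92% and 96% in that order, and also called 13 unchanged genes. Large planted shifts make the Benjamini-Hochberg cutoff easier to pass, whereas only 12 rows passed in the real data. These percentages therefore do not give the power behind the lack of calls among members. Shifts under 0.5, the range of the tested members' fold changes, were not simulated. Shared 31-base runs were counted in both orientations. Other settings tried were a replicate block, leaving out each library, median scaling, no filter, a stricter filter (lowest 50% left out), limma without trend and a pseudocount of 1. A fit of human-named rows alone was added after seeing the data. Plots used matplotlib 3.10.9.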

Additional observations from a re-analysis of the deposited data

How the results depend on the processing

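The count of 0 members called was the same under all 13 alternatives, as was the count of 0 for the pathway lists. CRK and LYN kept their signs in every alternative that tested them; LYN was not tested under the stricter filter. Members with an unadjusted limma p under 0.05 numbered 1 with the replicate block and 1 with the stricter filter, against 2, and from 1 to 3 with a library left out. All rows called numbered 0 with the replicate block (793 at an unadjusted p under 0.05), 0 in limma without trend (910) and from 0 to 7 with a library left out; the cause was not tested. Residuals of libraries with the same number correlated at 0.13, 0.05 and 0.03, and those with different numbers at -0.094 to 0.049. For each vehicle library the highest value was with the treated library of its own number, though all values were small. Whether the numbers pair the libraries is not stated, and these values do not settle it. The main fit left the numbers out, and the replicate block is the alternative.

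With a library left out, signs turned for PTK2 (-0.34 to 0.067), FYN (-0.093 to 0.028), CSK (-0.17 to 0.032), RAC1 (-0.051 to 0.0021) and TRIO (-0.061 to 0.20), and for RAC1 also with median scaling (0.0046). Without turning sign, CRKL ran from -0.14 to -0.060, CBL from -0.49 to -0.16, PTPN2 from 0.029 to 0.16, SOS1 from -0.33 to -0.13 and RHOA from 0.0064 to 0.089. Among within-library differences, PTK2 minus PTK2B ran from -0.062 to 0.50 and was -0.043 with a pseudocount of 1. FYN minus YES1 ran from 0.039 to 0.49, SRC minus FYN from -0.29 to -0.025, SRC minus YES1 from -0.081 to 0.31 and SRC minus LYN from -0.0073 to 0.19. With 5 libraries the sign-flip test cannot go below 0.062, so no neighbour order passed there. The differences ran from 1.70 to 1.81 for FYN above CRK, 0.60 to 0.79 for CRK above PTK2, 0.63 to 0.88 for PTK2 above YES1, 0.55 to 0.62 for CRKL above LYN, 2.17 to 2.25 for LYN above SRC, 0.99 to 1.17 for SRC above BCAR1 and 0.68 to 0.89 for BCAR1 above PTK2B. The unknown depth sets no stated limit on PTK2B, SRC and BCAR1, whose levels were the lowest.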

Other observations

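The rows whose library pattern was most like that of PTK2 were FKBP5, BCL2L2 and VPS13D. Likeness was the root mean square difference between values centred on their own mean over the 6 libraries, among 7224 tested rows with a current human symbol. It was 0.05 log2 units for FKBP5, a steroid-responsive chaperone partner, 0.06 for BCL2L2, an apoptosis inhibitor, and 0.06 for VPS13D, a lipid transfer protein, against a median of 0.28 over all rows compared. FKBP5 stood at 3.83, 3.29 and 2.91 log2 units in vehicle and at 3.12, 3.23 and 3.38 with VS-4718. As in PTK2, vehicle replicate 1 was the highest and vehicle replicate 3 the lowest library in each of the 3 rows. Among the 6 other tested members LYN came closest to PTK2, at 0.22, and YES1 was the farthest, at 0.42. A row with the same value in every library would lie at 0.25, so LYN was only slightly nearer than a flat row. With 6 libraries and 7224 rows some rows will lie close to any pattern, so these values only describe the libraries.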
